A study of Mus musculus with 2 samples.

Results

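In all, 6 transcripts that mark Müller glia were followed well by well through GFP-sorted mouse cones, to see which were spread over many cells and which sat in single wells. The 6 genes, Slc1a3, Glul, Rlbp1, Aqp4, Apoe and Clu, were taken from a list of Müller glia genes because each has a row in the deposited count table, and all 6 of 6 did, among 17774 genes in all. All 6 also passed the filter on low counts, which kept 15947 genes. Müller glia are the radial support cells of the retina. They wrap the photoreceptors, clear glutamate and recycle it as glutamine, carry retinoids for the visual cycle of cones, move water and potassium, and secrete lipid carriers. Their fine processes enclose the cell bodies of the photoreceptors.

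The cells came from retinae of PN24 mice on the C57BL/6 strain, in which the Pde6ccpfl1 mutation, a cause of cone degeneration, was crossed with Chrnb4.eGFP, so that the Chrnb4 promoter drove GFP and the GFP signal set the sort. Both groups carried the mutation and the transgene, and no library of a healthy retina was analysed here. In the GSK-J4-treated group, 1 intravitreal injection of GSK-J4, an inhibitor of the histone demethylases that act on H3K27, was given at PN14 at 10 µM and the retinae were taken 10 days later. The other group was uninjected, so no vehicle injection was compared. Each group was 1 library from 1 plate with 1 cell per well, and how many animals each plate held was not given in the sources used here. The column names of the treated cells hold the word adult, while the label gives the same age for both groups. Treatment and plate therefore cannot be told apart, cells are not replicates of a condition, and no test between the groups was possible.

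After filtering, 82 of 85 uninjected cells and 64 of 66 GSK-J4-treated cells remained. The depth was 1113424 counts over the uninjected plate (860 to 98250 per cell, median 8118) and 208578 over the treated plate (420 to 15371, median 2335.5). The labelled cell type was checked on 11 cone markers. In the uninjected library all 82 cells had cone counts, which made up 2.59% of the library. In the GSK-J4-treated library only 14 of 64 cells had any, 0.213% of the library, and 428 of those 445 counts lay in 3 cells, C02 with 303, E12 with 88 and F05 with 37. For Opn1sw, the short-wave cone opsin, the treated library held 0 counts against 6935 in the uninjected one. Chrnb4 was counted in 52 uninjected cells and in 13 treated cells. The cone label thus rested on detected markers in the uninjected cells and lacked them in 50 of the treated cells, which are called GSK-J4-treated cells here. Depth, cone markers and plate move together with every comparison of the groups below, and the part of depth and of the cone markers in it was not tested.

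At least 1 of the 6 transcripts was counted in 74 of 82 uninjected cells, or 90.2%, and in 16 of 64 GSK-J4-treated cells, or 25%. Summed over the 6 genes, uninjected cells held 1133 counts, 0.102% of the library, and treated cells held 57 counts, 0.0273%. Within the uninjected plate the number of the 6 genes found in a cell went with its depth. The 8 cells with none had a median of 1361.5 counts, the 18 cells with 1 had 3041, the 25 with 2 had 5847, the 15 with 3 had 18311, the 13 with 4 had 28764 and the 3 with 5 had 44681. No cell held all 6. In the treated plate 48 cells held none, 16 held exactly 1, and no cell held more than 1. When every cell was thinned to 867 counts, which kept 81 uninjected and 50 treated cells, 27 uninjected cells (33.3%) and 6 treated cells (12%) still had a count of any of the 6.

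**Figure D1:**
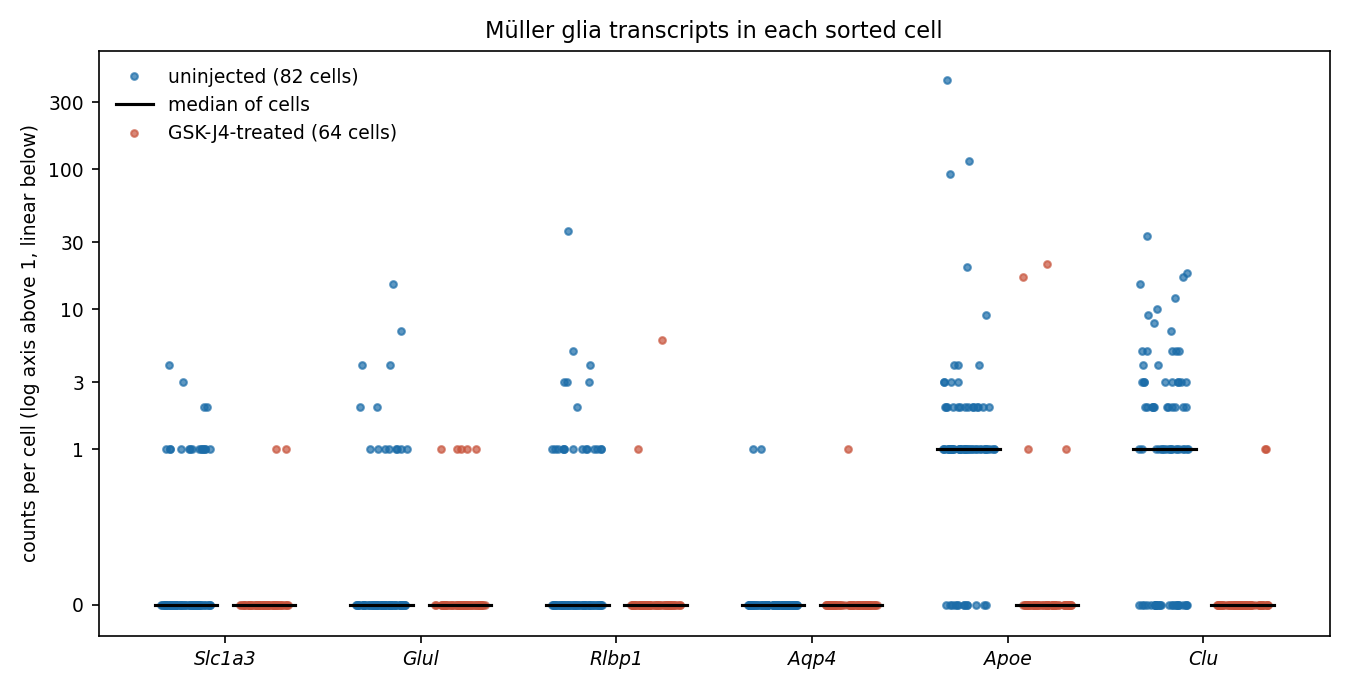
Counts per cell (vertical axis, logarithmic above 1 and linear below) of the 6 Müller glia transcripts, with 1 point per cell, blue for 82 uninjected and red for 64 GSK-J4-treated cells, and a black bar at the median of the cells. Most points lie at 0 or 1, Apoe and Clu alone have a median of 1 in uninjected cells, and single wells stand far above the rest for Apoe (432, 114 and 92), Rlbp1 (36) and Glul (15).

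Slc1a3 encodes GLAST, the glutamate transporter through which Müller glia take up glutamate, and it was spread thinly. Its 25 uninjected counts (95% exact Poisson interval 16.2 to 36.9; all intervals here cover counting error only) lay in 18 cells, 22.0% of the plate. D10 held 4 counts, D04 held 3, C08 and C12 held 2 each, and 14 cells held 1 each. The top well thus held 16% of the counts, and 6 cells were needed to reach 50%. Had the 25 counts been dealt out in proportion to the depth of each cell, 18.3 cells would have held a count, next to the 18 observed. The treated library had 2 counts, 1 in D01 and 1 in H10.

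Glul encodes glutamine synthetase, the enzyme that turns the captured glutamate into glutamine, and its 42 uninjected counts (30.3 to 56.8) were concentrated on 1 side of the plate. B12 held 15, C12 held 7, D12 and G10 held 4 each, C08 and H09 held 2 each, and 8 cells held 1. These 14 cells compare with 26.2 cells had the counts followed depth. Columns 7 to 12 held 40 of the 42 counts, in 12 of 43 cells. Columns 1 to 6 held 2 counts, in 2 of 39 cells. Per 10000 counts of each side, Glul stood at 0.706 in columns 7 to 12 and 0.0366 in columns 1 to 6. The median depth of a cell was 7163 and 8819 in that order. An uneven split by side was not particular to Glul. Columns 1 to 6 and 7 to 12 held 4 and 65 counts of Gfap and 18 and 88 of Aldoc. The split went the other way for Rlbp1 (54 and 16), Car2 (166 and 11) and the rod gene Gnat1 (160 and 18). Clu was near even (125 and 107). In the treated library Glul had 5 counts, 1 each in A02, B02, C02, F03 and H04, all in columns 1 to 6. The Glul gene spans chr1:153899944-153909723 on the plus strand (GRCm38) and overlaps the coding gene Teddm2 on the other strand, which had 3 counts in all, and the microRNA gene Mir8114 on the same strand; how reads in the overlaps were assigned was not tested.

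Rlbp1 encodes CRALBP, the retinaldehyde carrier of Müller glia and of the retinal pigment epithelium. Its 70 uninjected counts (54.6 to 88.4) lay in 21 cells, 25.6% of the plate, against 35.4 cells expected from depth. H04 alone held 36 counts, 51.4% of them. C08 held 5, C12 held 4, G02, F03 and F05 held 3 each, B12 held 2 and 14 cells held 1. Without its 2 wells above 4 counts, 29 counts were left in 19 of 80 cells. In the treated library C11 held 6 counts and E11 held 1. Among markers of the pigment epithelium, 3 of 7 had a row, with 29 counts in the uninjected library and 1 of them, Ttr, in H04.

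Aqp4, the water channel of the glial endfeet, was at the edge of detection. It had 1 count each in D09 and B02 of the uninjected plate and 1 count in F01 of the treated plate. These are 2.44% (0.297 to 8.53%) of uninjected and 1.56% (0.0396 to 8.40%) of treated cells, so no difference was detectable at this depth. Kcnj10, the potassium channel that shares these endfeet, had 0 counts in uninjected cells, which allows a share of up to 3.66% of cells with a count, and 1 count in each of 3 treated cells.

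Apoe encodes apolipoprotein E, a lipid carrier that Müller glia secrete and that astrocytes and microglia also make. Its uninjected counts fell into a wide low layer and a few wells with many. H04 held 432 counts, B12 114, C08 92, B02 20 and H09 9. A further 64 cells held 1 to 4 counts, with 43 cells at exactly 1, 14 at 2, 4 at 3 and 3 at 4, and 13 cells held none. In all 762 counts (709 to 818) lay in 69 of 82 cells, 84.1% (exact Clopper-Pearson interval 74.4 to 91.3%), yet H04 held 56.7% of them and the top 3 wells held 83.7%. Dealt out by depth, the 762 counts would have reached 74.4 cells. Cells of the low layer spanned a wide range of depth. Cells at 1 count ranged from 1164 to 44681 counts in depth with a median of 8071, cells at 2 had a median of 9940.5, cells at 3 had 32602 and cells at 4 had 37670, while the 13 cells at 0 had 1409. Outside the 5 wells above 4 counts, 95 counts remained in 64 of 77 cells, 0.905 per 10000 counts (0.732 to 1.11), in 83.1% of those cells.

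In the GSK-J4-treated plate the wells with many Apoe counts were present and the low layer was nearly absent. B09 held 21 counts, E02 held 17, and E07 and G12 held 1 each, while 60 cells held none. Outside B09 and E02, 2 counts were left in 62 cells, 0.0999 per 10000 counts (0.0121 to 0.361), in 3.23% of the cells. After thinning, and again outside the wells above 4 counts, 12 of 76 uninjected cells (15.8%) and 0 of 48 treated cells had an Apoe count.

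A wide layer with the majority of cells at exactly 1 count was not particular to Apoe. Among the 194 genes counted in at least 80% of uninjected cells, 17 had over 50% of their positive cells at 1 count, and the median over the 194 genes was 19.7%. For Apoe this share was 62.3%, for the cone opsin Opn1mw 64.6% (53 of 82 cells), for the cone phosphodiesterase subunit Pde6h 58.5% (48 of 82 cells) and for the nuclear RNA Malat1 65.4%. Opn1mw had 1 count even in each of the 3 wells with the most Apoe. Rod markers, which cones are expected to lack or to hold at low levels, gave no single background level at the same median depths (8118 and 2335.5). Over the 12 listed the share of cells with a count ran from 6.10% for Nr2e3 to 98.8% for Pde6g in the uninjected plate, and from 0% to 17.2% (Pde6a) in the treated plate, and neither plate held a cell type known to lack Apoe. The 84.1% of cells with Apoe lies within that range. No expression by the cones is read from that share.

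Clu encodes clusterin, a secreted chaperone and lipid carrier of glia, and a smaller share of its counts sat in single wells. The 232 uninjected counts (203 to 264) lay in 56 of 82 cells, 68.3%, next to 58.2 cells expected from depth. D07 held 33, A02 18, D06 17, F05 15, C06 12, F06 10, H04 9, C12 8 and C08 7, and 5 cells held 5 each. The top well held 14.2% of the counts, the top 3 held 29.3%, and 8 cells were needed for 50%. Most of the wells with many Clu counts were deep, D07 with 28119 counts, D06 with 39454, F05 with 37282 and C06 with 75174, but A02 and F06 reached 18 and 10 counts from depths of 1710 and 2663. In A02 the cone markers made up 4.62% of the counts and in F06 2.37%, both above the median cell at 1.89%. The rank correlation of Clu counts with depth over the 82 cells was 0.63, beside 0.48 for Apoe and 0.51 for Rlbp1, as a description of cells that share 1 library. The treated library had 2 Clu counts, 1 in H03 and 1 in F06, and after thinning Clu was seen in 12 of 81 uninjected cells and 0 of 50 treated cells.

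**Figure D2:**
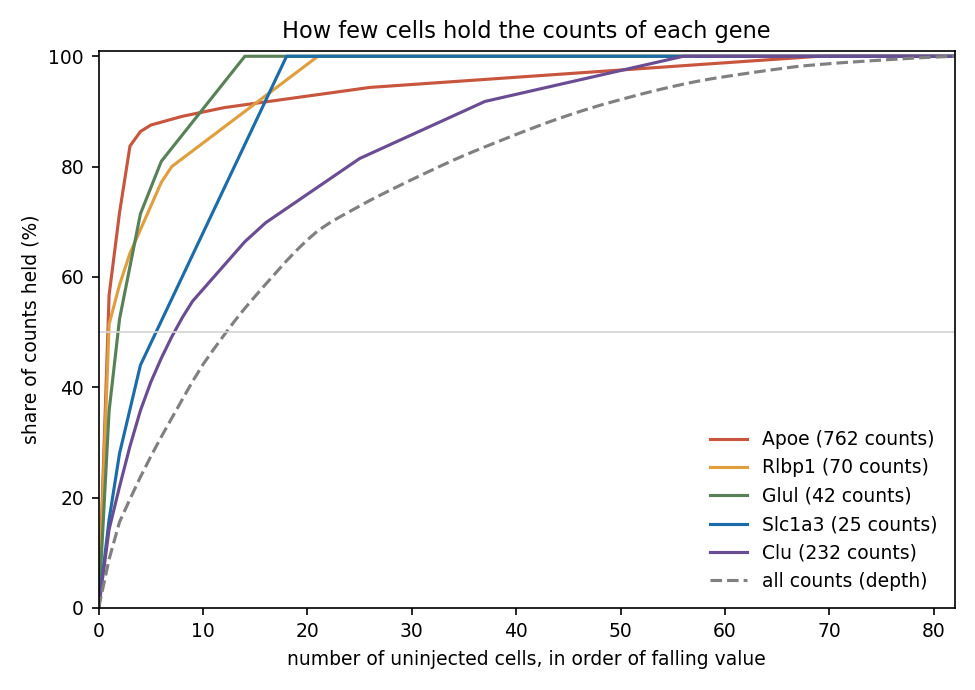
Share of the uninjected counts of each gene held (vertical axis, %) by the first cells in order of falling count (horizontal axis, number of cells out of 82); the dashed grey line is the same for all counts of the cells. Apoe and Rlbp1 pass 50% at the first cell and Glul at the second, Slc1a3 needs 6 cells, and Clu, which needs 8, runs nearest to the line of depth.

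Over 50% of the counts in 1 cell was found for 2 of the 5 transcripts with at least 10 uninjected counts, Apoe and Rlbp1, beside 13.9% of all 8703 genes with as many counts. In the treated library the only 1 with at least 10 counts was Apoe, with 52.5% in B09, beside 23.5% of 3278 genes. With 5 and 1 genes these counts are descriptions only. Among the 194 genes found in at least 80% of uninjected cells, 3 genes or 1.55% had over 50% of their counts in 1 cell. Apoe was one of them, and the others were Cst3, which encodes the secreted protease inhibitor cystatin C, with 383 of 761 counts in C08, and Fam120a with 550 of 1041 counts in F11. The sets of wells differed between the plates. Of the 54 well positions filled in both plates, H04, B12 and C08 held 0 Apoe counts in the treated plate, and B09 and E02 held 1 count each in the uninjected plate.

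**Figure D3:**
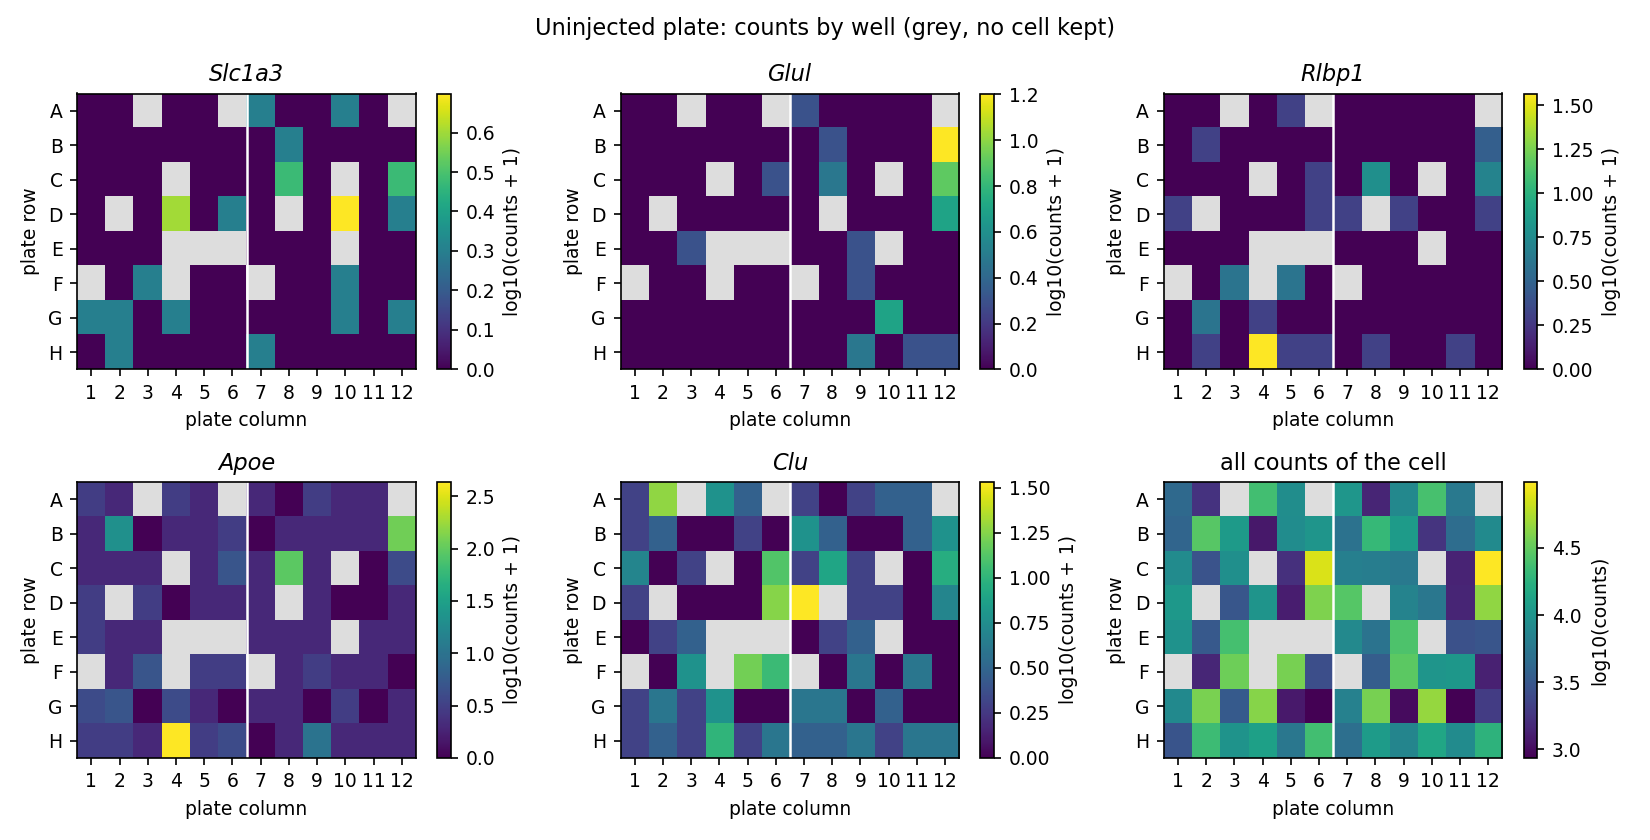
Maps of the uninjected plate (rows A to H, columns 1 to 12) coloured by log10(counts + 1) for 5 transcripts and by log10 of all counts of the cell in the last panel; grey wells have no kept cell and the white line parts columns 1 to 6 from 7 to 12. Apoe stands out in H04, B12 and C08 over a layer of low counts, Rlbp1 in H04, and Glul in B12 with 40 of its 42 counts in columns 7 to 12, while Clu is scattered.

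The 3 uninjected wells with the most Apoe were compared with the other 79 cells; they were chosen after the values were seen. The 6 transcripts together made up 477 of the 12594 counts of H04 (3.79%), 136 of the 8309 counts of B12 (1.64%) and 108 of the 6407 counts of C08 (1.69%). In the other cells they made up 0.0379%, with a highest cell of 1.11%, A02, where 18 of the 19 counts were Clu. Apoe alone gave 432 of the 477 counts in H04, 114 of the 136 in B12 and 92 of the 108 in C08. The wells were chosen by Apoe, so their high shares follow in large part from that choice. The 6 transcripts were present in different proportions in each well. For every 100 Apoe counts, H04 held 8.33 Rlbp1, 2.08 Clu and 0 Glul counts, B12 held 1.75 Rlbp1, 4.39 Clu and 13.2 Glul counts, and C08 held 5.43 Rlbp1, 7.61 Clu and 2.17 Glul counts. The other cells held 21.8 Rlbp1, 170 Clu and 20.2 Glul counts per 100 Apoe counts. Since Apoe picked the 3 wells, low ratios to Apoe in them were set by the choice. Per 10000 counts, Clu stood at 7.15 in H04, 6.02 in B12 and 10.9 in C08, against 2.08 in the summed counts of the uninjected plate and 3.46 as the mean over its cells. Such values were not particular to the 3 wells, since A02 stood at 105, F06 at 37.6 and D07 at 11.7.

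Further Müller glia genes, 17 of 18 listed with a row, also had their highest summed share in these 3 wells, again in different sets. They made up 2.68% of the counts of C08, 1.46% of H04 and 0.518% of B12, and at most 0.355% of any other cell. In H04 the counts lay on Car14, a membrane carbonic anhydrase (79 counts, of 119 in the plate), Dbi, a lipid-binding protein (37), Cp, the copper oxidase ceruloplasmin (33), the growth factor Ptn (17), Dkk3 (16) and Mlc1 (2). In B12 they lay on Dkk3 (12), Dbi (11), Aldoc, an aldolase of glia (9), Hes1, a Notch target (7), Gpr37 (3) and Car2 (1). In C08 they lay on Dbi (102), Gfap, the intermediate filament of astrocytes and of reactive Müller glia (34), Aldoc (14), Mlc1 (7), Dkk3 (6), Vim (3), Hes1 (3), Cp (2) and Car14 (1). Sox9, Sox2, Sox8 and Kcnj10 had 0 counts in all 3 wells. In the other 79 cells Sox9 was counted in 14, Sox2 in 6, Sox8 in 3 and Kcnj10 in 0. Not every gene of the list went with the sum. Outside the 3 wells lay 176 of the 177 counts of Car2, 30 of the 33 of Vim and all 20 of Sox9.

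Markers of other cells also differed between the 3 wells. C08 had the highest astrocyte share of the 82 cells, 59 counts or 0.921% from Gfap (34), S100b (16), Pax2 (8) and Gja1 (1), against at most 0.317% elsewhere. The astrocyte list has 5 genes, and Slc1a2, the remaining gene, had 0 counts in C08 and 223 counts in 48 of the 79 cells outside the 3 wells. The 34 Gfap counts also belong to the further Müller glia genes above, so the 2 shares overlap. C08 also had the highest share of vessel markers, 22 counts or 0.343%, all on the pericyte gene Rgs5. H04 had 1 astrocyte count and B12 had 0. No microglia, bipolar or amacrine marker was counted in any of the 3, with 3 of 8, 6 of 7 and 6 of 6 of those markers having a row. Most other cells had none either, since only 6, 33 and 22 of the 82 cells had a count on these lists. Cone markers were low but present, with 51 counts in H04 (0.405%), 54 in B12 (0.650%) and 28 in C08 (0.437%), against 2.64% in the other 79 cells together and a range of 0.358 to 9.81% over them. Only 2, 5 and 3 of the 82 cells had a lower cone share than H04, B12 and C08. Cnga3, Cngb3 and Pde6c had 0 counts in the 3 wells, and Chrnb4, whose promoter drove the GFP of the sort, had 1 count in each. In the other 79 cells too, Cnga3, Cngb3 and Pde6c were counted in only 13, 29 and 17.

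**Figure D4:**
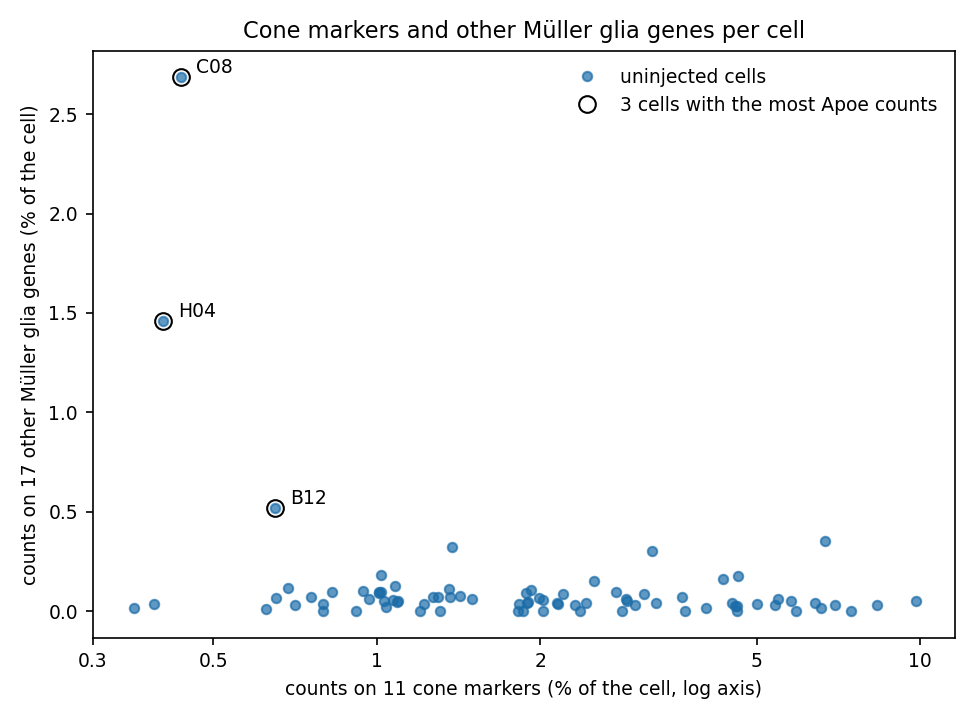
Share of counts on 17 other Müller glia genes (vertical axis, % of the cell) against the share on 11 cone markers (horizontal axis, % of the cell, log axis) for the 82 uninjected cells; open circles mark the 3 cells with the most Apoe counts. Those 3 cells, C08 at 2.68%, H04 at 1.46% and B12 at 0.518%, have the highest Müller glia shares and lie at the low end of the cone shares.

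The 3 treated wells with the most counts of a single transcript were read in the same way. B09, with 21 Apoe counts in 3229, had 0 counts on other Müller glia genes, 0 cone counts, 2 counts of the microglia complement gene C1qa, and 1 count each of the pericyte genes Pdgfrb and Rgs5. B09 also had 1 count each of the rod gene Reep6 and the amacrine marker Tfap2a. E02, with 17 Apoe counts in 5180, had 6 counts on other Müller glia genes (3 Cp, 2 Cd44 and 1 Vim), 0.116% of the cell against 0.0297% of the treated library, and 0 cone counts. That share was not particular to E02. Treated cells without Apoe counts stood higher, among them H04 of the treated plate at 0.281% and F08 at 0.238%. E02 also had 2 counts each of the bipolar marker Trpm1 and the amacrine marker Tfap2a. C11, with 6 Rlbp1 counts in 4707, had 0 counts on other Müller glia genes, 0 cone counts and 1 count of the microglia gene Tmem119. It also had 1 count each of the rod-list genes Gnb1 and Pde6a. Of the 16 treated cells with a count of the 6 transcripts, 4 also had a cone count.

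Across the 82 uninjected cells, ln(1 + counts per 10000) of each transcript was set against 6783 genes. The genes most alike to Apoe were Rlbp1 (Pearson r 0.63), Dkk3 (0.58) and Nupr1 (0.57), and without the 3 wells these values were −0.04, −0.05 and 0.14. For Glul they were Hes1 (0.76), Ccdc6 (0.75) and C1qtnf6 (0.75), with 0.17, 0.55 and 0.27 without the 3 wells. Rlbp1 was most like Stk38 (0.75), Car14 (0.74) and Msra (0.71), with 0.56, 0.34 and 0.44 without them. The genes most alike to Clu, Snrpe (0.58), Tmem141 (0.57) and Cntn1 (0.56), and to Slc1a3, Olfr571 (0.61), Gm38161 (0.60) and Agps (0.58), were no glial markers of the lists. Clu and Slc1a3 had r of 0.28 and 0.01 with Apoe, and 0.08 and −0.16 without the 3 wells. These values describe sparse counts of cells that share 1 library and differ in depth. No transcript reached 10% of the treated cells, so none was set out there.

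**Figure D5:**
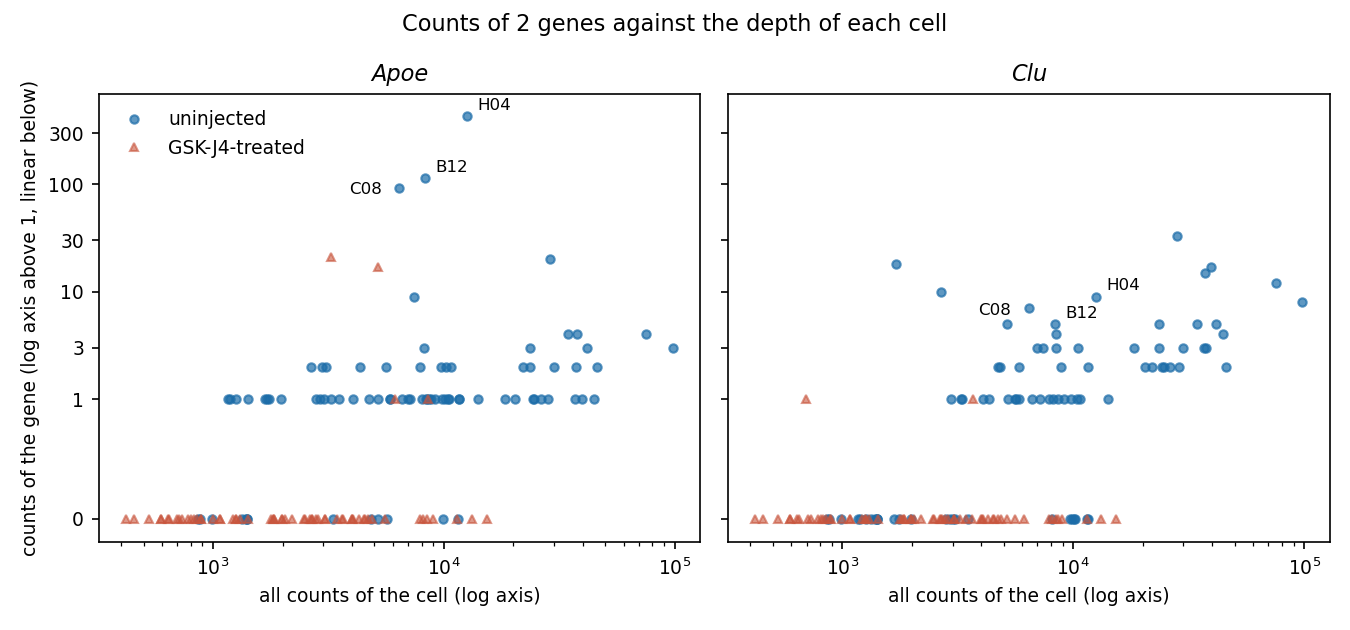
Counts of Apoe (left) and Clu (right) in each cell (vertical axis, logarithmic above 1 and linear below) against all counts of the cell (horizontal axis, log axis), blue circles for uninjected and red triangles for GSK-J4-treated cells; the labels name the 3 uninjected wells with the most Apoe. For Apoe a layer of 1 to 4 counts runs over most of the range of depth with H04, B12 and C08 above it, Clu runs up to 33 counts with no such gap, and treated cells lie at 0 apart from 4 cells for Apoe and 2 for Clu.

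The levels of the groups were compared on the scale of counts per 10000, averaged over cells, as a natural log-fold of the mean plus 1 (GSK-J4-treated minus uninjected). All 6 transcripts had a value below 0, and 2 of the 5 found in at least 10% of the cells of a library, Apoe and Clu, lay below −0.3, beside 24% of 7682 genes. The median over the 6 was −0.23 and that over the 7682 genes −0.0050. Apoe averaged 9.69 per 10000 in uninjected and 1.57 in treated cells, a log-fold of −1.42, and in summed counts was 3.57-fold lower (2.60 to 5.04). Its size depended on which single wells were counted. Without H04, B12 and C08 alone, and so with B09 and E02 still in, the log-fold was −0.20. Without all wells above 4 Apoe counts in either plate it was −1.04. Clu averaged 3.46 and 0.266 per 10000, a log-fold of −1.26, and was 21.7-fold lower in summed counts (5.95 to 180.5), and its value without wells above 4 counts was −0.54.

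For the other 4 transcripts the counting interval of the summed ratio held 1. Slc1a3 was 2.34-fold lower (0.584 to 20.4) with a log-fold of −0.20, Rlbp1 1.87-fold lower (0.863 to 4.83) with −0.26 and Glul 1.57-fold lower (0.623 to 5.10) with −0.09. For Aqp4 the ratio of treated over uninjected was 2.67 (0.0452 to 51.3), with a log-fold of −0.0093, so the 2 measures differed in sign. Without H04, B12 and C08 the log-folds of Rlbp1 and Glul were 0.08 and 0.12. Within columns 1 to 6 the log-fold of Glul was 0.40 and within columns 7 to 12 −0.53, while Rlbp1 had −0.66 and 0.13. A difference in Glul, Rlbp1, Slc1a3 or Aqp4 was not detectable at this depth.

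The pathways these transcripts belong to were read from lists over both libraries. Of the glutamate recycling genes 5 of 7 had a row, 4 had a lower and 1 a higher mean. The glutamate transporter Slc1a2 had 224 counts in 49 uninjected cells and 15 counts in 8 treated cells, a log-fold of −0.93. It is on the astrocyte list, yet of its uninjected counts 1 lay in H04, 0 in B12 and 0 in C08. The glutamine exporter Slc38a3 had 141 and 9 counts (−0.65). Both genes, 2 of the 5, lay below −0.3, beside 24% of the 7682 genes compared. Of the retinoid genes 9 of 11 had a row, 4 lower and 5 higher. Abca4, the retinoid flippase of photoreceptor outer segments, had 1467 counts in 75 uninjected cells and 356 counts in 52 treated cells, a log-fold of 0.24. Rbp3, the retinoid carrier that photoreceptors secrete, had 184 and 5 counts (−1.01), and Degs1 had 135 and 10 (−0.71), 12 of the 135 in H04. Of the genes for water and potassium handling 7 of 8 had a row, 5 lower and 2 higher, with 93 and 40 counts of dystrophin, Dmd (−0.12), 50 and 6 counts of its partner Dtna (−0.43) and 29 and 1 counts of Mlc1 (−0.30).

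Of the secreted lipid carriers and their partners 11 of 11 had a row, 5 lower and 6 higher. Lrp2, the endocytic receptor megalin, had 585 counts in 50 uninjected cells, of which 1 lay in H04, B12 or C08, and 42 counts in 11 treated cells, a log-fold of −0.24. Lrp1, another receptor of Apoe, had 6 of its 128 uninjected counts (4.69%) in the 3 wells, 3 each in H04 and B12, and Lrp8 had 2 of 100. The sterol exporters Abca1 and Abcg1 had 0 of 35 and 0 of 86. Of all 1113424 counts of the plate, H04, B12 and C08 held 12594, 8309 and 6407. Whether the shares of these partners depart from depth was not tested.

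Of the further Müller glia genes, 11 had a lower and 6 a higher mean in the treated library, with 6 below −0.3 (beside the 24% of all genes compared) and 0 above 0.3, and the list went from 1107 to 62 counts, 0.0994% to 0.0297% of the library. The 3 with the most counts were Dbi with 336 and 0 counts (−1.61), Car2 with 177 and 0 counts (−0.89) and Car14 with 119 and 3 counts (−0.58). Beside these values, the cone list had 11 of 11 genes lower and 10 below −0.3, and the rod list 11 of 12 lower and 7 below −0.3, beside the same 24%. The bases differ, since the 24% covers only genes found in at least 10% of the cells of a library. The list counts cover every gene with a row, including Sox2, Sox8, Kcnj10, Ptn, Cd44, Nrl and Nr2e3, which lay below that limit. The microglia list had 10 counts in the uninjected and 7 in the treated library, over the 3 of 8 markers with a row.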

How the data were processed

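Single GFP-sorted cells of 2 libraries, uninjected and GSK-J4-treated, were analysed. The authors deposited 1 table of raw counts per gene and cell, without normalization. Per the study's methods, reads carried a well barcode and a UMI of 8 nt used to remove PCR duplicates, were aligned with CLC Genomics Workbench v20 and were counted with featureCounts on Gencode M17, with 5′ and 3′ counts summed. The build is named there as GRCh38, a human build number; gene positions given here are those of GRCm38 in GENCODE vM21. The table held fewer treated cells than the study states. All columns were mapped by the cell name (0 not mapped).

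Following the study's filter, a gene had to be counted in 3 cells or more, and a cell had to show 200 or more genes and no more than 5% of mitochondrial counts. Per cell, counts were scaled to 10000 and the log-fold is ln(mean + 1), treated minus uninjected, with 0.3 as the size limit. Sums have exact Poisson and shares exact Clopper-Pearson 95% intervals; the summed ratio has the exact conditional binomial one. They cover counting error only. For zeros, 3 counts were taken as the limit. Cells if spread by depth is the expected number of cells with a count when each count falls on a cell in proportion to its depth. It spreads all counts of a gene, those of its top wells too. A single well with many counts is therefore enough to put the observed number below it. Thinning drew 867 counts per cell, the 10th percentile. No doublets were called, as 1 cell was sorted per well, and no p-value was computed. Scripts (Python 3.11.15, pandas 2.3.3, numpy 2.4.6, scipy 1.17.1, matplotlib 3.10.9) were tested on simulated data.

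The 6 genes and all lists were chosen with earlier results of these data known. The 3 wells with the most Apoe, the 3 treated wells, the limit of 4 counts, the shares of cells at 1 count and the genes in at least 80% of cells were chosen after the values were seen. Named were the 6 genes, the 3 genes with the most counts of each pathway list, and the 3 genes with the highest r among those in at least 10% of uninjected cells; genes named beyond that (those counted in the described wells, Abca1, Abcg1, Lrp1, Lrp8, Kcnj10, Nr2e3, Pde6g, Pde6a, Cst3, Fam120a and Malat1) were chosen after their values were seen. No sequences are shown, since the values are counts per gene.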

Additional observations from a re-analysis of the deposited data

How the results depend on the processing

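All 6 transcripts had a log-fold below 0 in the main setting and 4 to 6 of them under each alternative; Apoe (−1.85 to −0.20), Clu (−2.27 to −0.54) and Slc1a3 (−0.81 to −0.03) stayed below 0 in every one, whereas Glul ranged from −0.53 to 0.40 and Rlbp1 from −0.71 to 0.13. The share of uninjected cells with any of the 6, 90.2%, was 95.9% with a minimum of 500 genes per cell, 33.3% after thinning and 58.5% when at least 2 counts were asked for; the treated share, 25%, was 12% after thinning and 4.69% with at least 2 counts. The number of transcripts with over 50% of their uninjected counts in 1 cell, 2, was 0 after thinning (2 had enough counts), 0 in columns 7 to 12 alone and 0 without the 3 wells with the most Apoe, by construction of the last. In the treated library no transcript kept 10 counts after thinning, so that alternative gave no value. Leaving out the 3 wells, or wells above 4 counts, was chosen after seeing the data. Each group was 1 library, so leaving out a replicate was not possible. No paired analysis was possible because each group has 1 sample and the result comes from no test. Depth limits the treated values of Aqp4, Slc1a3, Clu, Rlbp1 and Glul, with 7 or fewer counts each.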
